A study of Homo sapiens with 4 samples.

Results

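The genes that control passage through G1 were examined in ES2 cells, an established human ovarian cancer cell line, after inhibition of the leukemia inhibitory factor receptor (LIFR). The set was chosen by gene symbol and holds 10 genes of the 23228 gene symbols in the count files. These are the D-type cyclins CCND1 and CCND3, the kinases CDK2, CDK4 and CDK6, the inhibitors CDKN1A, CDKN1B and CDKN2C, the retinoblastoma gene RB1 and the transcription factor MYC. All 10 genes were counted in every library and all 10 passed the filter on low counts. Cells had received vehicle (0.1% DMSO) or the LIFR inhibitor EC359 at 10 nM, and RNA was taken after 12 h in both groups. There were 2 libraries for each group, and both groups were the same line in serum-containing medium, compared at 1 dose and 1 time. The study counts the libraries as biologically independent samples, and how the cultures were separated is not given in the sources used here, so the p-values measure the spread between these libraries.

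In G1, D-type cyclins bind CDK4 and CDK6, and cyclin E binds CDK2. These kinases phosphorylate the retinoblastoma protein, which then releases E2F factors that drive the genes of DNA synthesis. CDKN2C belongs to the INK4 inhibitors, which bind CDK4 and CDK6, and CDKN1A and CDKN1B (p21 and p27) belong to the CIP/KIP inhibitors, which act on cyclin E complexes with CDK2. LIFR signals through JAK kinases and STAT3, and CCND1, MYC and CDKN1A are among the genes known to respond to STAT3. Much of this control acts on protein stability and phosphorylation, which read counts do not measure.

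Reads counted on genes totalled between 25572494 and 31707553 per library, and 12706 genes were tested. Of 13 markers of ovarian carcinoma, 7 passed the filter. KRT7 had from 6679 to 8979 counts and KRT18 from 6304 to 8773. CDH1, EPCAM, MUC16 and NAPSA had 2 counts or fewer in every library, and PAX8 had from 24 to 41. VIM, a mesenchymal filament gene, had from 135855 to 153104 counts. Among 8 markers of other cell types, PTPRC, CD3E, MS4A1, PECAM1, VWF and DCN had 3 counts or fewer in every library, while COL1A1 had from 11994 to 14964 and CD68 from 2296 to 2914.

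Levels of different genes were compared per length, as counts divided by library total and transcript length (RPKM). By this measure the cyclin D1 and CDK4 messages stood far above the other 8 genes. CDK4 had 218 RPKM in vehicle replicate 1, 229 in vehicle replicate 2, 203 in EC359 replicate 1 and 213 in EC359 replicate 2. In the same order CCND1 had 202, 207, 194 and 204. The ranges of CDK4 and CCND1 over the 4 libraries overlapped, so their order was not resolved. MYC followed with 53.2 to 56.1 RPKM. CCND3 ranged from 44.5 to 51.5 and CDK2 from 38.2 to 44.6, and these neighbours touched at the edge of their ranges. CDKN2C had 29.1 to 34.2 RPKM, RB1 24.7 to 27.6, CDK6 17.4 to 18.8 and CDKN1B 12.5 to 15.9, each separated from the next. CDKN1A was the lowest, at 2.95 to 3.31 RPKM. The third D-type cyclin, CCND2, had 0 and 4 counts with vehicle and 0 and 3 with EC359, so CCND1 and CCND3 were the D-type cyclins measured in this line. These levels rest on 1 annotated transcript per gene, and CDK6 has the longest, at 11663 bases.

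**Figure D1:**
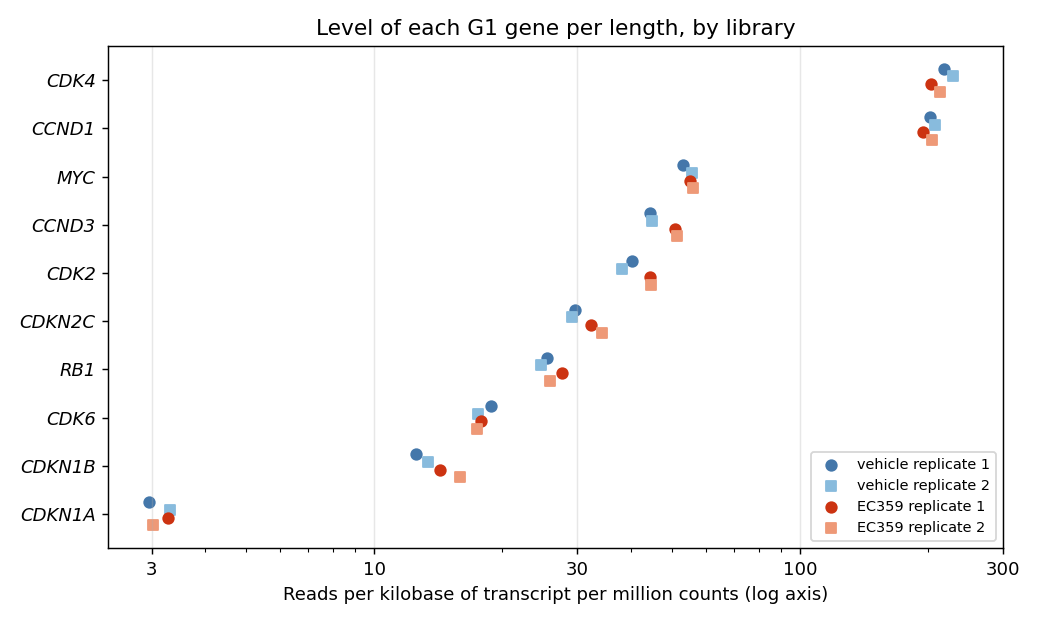
Each row is 1 gene, ordered by level, with RPKM on a logarithmic axis and 1 point for each of the 4 libraries. CDK4 and CCND1 lie between 194 and 229 RPKM, and CDKN1A lies between 2.95 and 3.31 RPKM.

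Whether EC359 changed the messages of the G1 regulators was asked first for the whole set. None of the 10 genes was called. A call needed an adjusted p under 0.01, where p came from the quasi-likelihood test of edgeR and was adjusted over all tested genes by the Benjamini-Hochberg method. By this rule 1.09% of all genes were called, against 0 of the 10, and 5 of the 10 passed an unadjusted p under 0.05. These 5 were 4 higher (CCND3, CDK2, CDKN1B and CDKN2C) and 1 lower (CDK4) with EC359, where 21.6% of all genes passed, 10.7% higher and 11% lower. With DESeq2, 3 of the 10 passed that level, beside 1525 of the 12706 genes. Fewer of the 10 and fewer of all genes passed when EC359 replicate 1 or EC359 replicate 2 was left out. DESeq2, edgeR's exact test and limma voom also called 0 of the 10, beside 230, 561 and 146 of the 12706 genes. Log2 fold changes ran from -0.13 for CDK4 to 0.20 for CDKN1B, with a median of 0.039 beside 0.003 over all genes. Both EC359 libraries lay on one side of both vehicle libraries for 8 of the 10 genes, above in 5 and below in 3. Over all genes 51.5% were separated in this way, 26.1% above and 25.4% below. The mean was higher with EC359 in 6 of the 10 genes and in 51% of all genes. Over all genes, 38 were called higher (0.299%) and 101 lower (0.795%), and when libraries were scaled by their totals alone the split was 52 and 68.

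**Figure D2:**
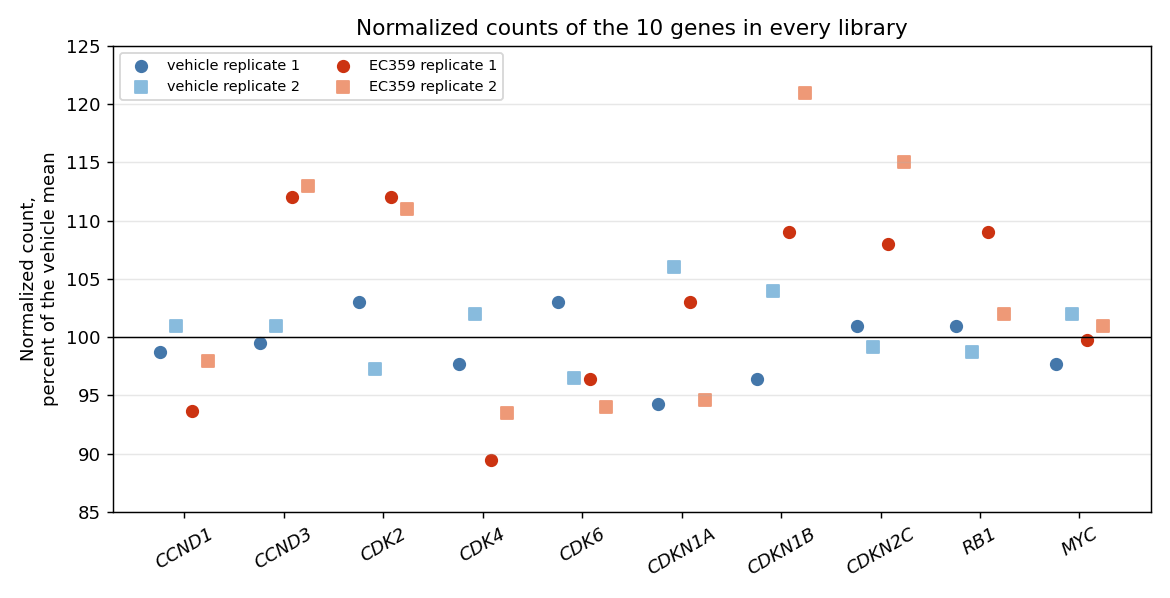
For each gene the normalized count in each of the 4 libraries is given as a percent of the mean of the 2 vehicle libraries. The EC359 libraries of CCND3 and CDK2 lie at 111 to 113, those of CDK4 at 89.5 and 93.5, and MYC stays between 97.7 and 102 in all 4 libraries.

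CCND1 and CCND3, which partner CDK4 and CDK6, had fold changes of opposite sign, and neither was called. Read counts were scaled to a common library size (normalized counts), replicate 1 first. CCND1 had 24329 and 24968 with vehicle and 23103 and 24151 with EC359. The EC359 libraries lay just below the vehicle libraries, with a log2 fold change of -0.06 (edgeR adjusted p = 0.309, standard error 0.0326). The 95% interval of this change ran from -8.83% to 0.779%, and without EC359 replicate 1 the log2 value was -0.03. CCND1 is found in GRCh37 on chromosome 11 from 69455924 to 69469242, and 9.6% of the 50-base windows of its transcript also occur in transcripts of other genes. CCND3 had 2564 and 2590 normalized counts with vehicle and 2884 and 2915 with EC359. Its replicates differed by far less than the groups did. The log2 fold change of CCND3 was 0.17 (standard error 0.041), an increase of 12.5% with a 95% interval from 5.63% to 19.8%. The edgeR adjusted p was 0.0459, the lowest of the 10 genes, and missed the threshold of 0.01. CCND3 was the only one of the 10 under an adjusted p of 0.05. Over all genes 4.32% passed that level, 1.68% higher and 2.64% lower with EC359. With each library's trend against GC content removed, the adjusted p of CCND3 was 0.00261 at a log2 fold change of 0.18, and with DESeq2 it was 0.1. CCND3 lies on chromosome 6 from 41902672 to 42018095 and shared none of its windows with other genes.

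CDK2, the partner of cyclin E, had 2573 and 2437 normalized counts with vehicle and 2797 and 2790 with EC359. Both EC359 libraries were higher, by a log2 fold change of 0.16 (edgeR adjusted p = 0.075, standard error 0.0446), with a 95% interval from 4.13% to 19.4%. The GC-corrected fit gave CDK2 an adjusted p of 0.00223, and called 979 genes over all, against 139 in the main fit. With DESeq2 the adjusted p of CDK2 was 0.166. When each library was left out, its log2 fold change ran from 0.11 to 0.20. CDK2 lies on chromosome 12 from 56360565 to 56366573, and PMEL overlaps 89 of its exonic bases on the other strand but had between 6 and 10 counts. CDK6, on chromosome 7 from 92234235 to 92465887, had 6238 and 5821 normalized counts with vehicle and 5815 and 5666 with EC359. These groups were separated by a narrow gap, and the spread within vehicle was wider than that gap (log2 fold change -0.07, edgeR adjusted p = 0.347, standard error 0.0407). Its 95% interval ran from -10.6% to 1.36%. The CDK6 value moved to -0.02 without vehicle replicate 1 and to -0.13 without vehicle replicate 2.

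CDK4, a partner of D-type cyclins, had 11582 and 12130 normalized counts with vehicle and 10615 and 11080 with EC359. It was the lowest of the 10 genes by log2 fold change, at -0.13 (edgeR adjusted p = 0.075, standard error 0.0363). Its 95% interval ran from -13.5% to -3.26%. With the GC trend removed the CDK4 value was -0.09 (edgeR adjusted p = 0.0215), which was not called. CDK4 lies on the minus strand of chromosome 12 from 58141510 to 58149796. TSPAN31 lies on the opposite strand and overlaps it over 1369 exonic bases, and 51.4% of the 50-base windows of the CDK4 transcript also occur in other genes' transcripts in one orientation or the other. The library kit marks strand, but the strand setting of the counting is not given in the sources used here, so the CDK4 count is uncertain. TSPAN31 had 267 and 229 normalized counts with vehicle and 183 and 191 with EC359 (log2 fold change -0.41, edgeR adjusted p = 0.0797), levels far below those of CDK4. Its part in the CDK4 value was not tested.

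CDK4 is a known target of MYC, which binds E-boxes with MAX, and CDKN1B was the gene at the other end of the range of fold changes. The 250 bases before the RefSeq start of each are therefore shown, from GRCh38.p14, in the direction of transcription. Capitals mark CACGTG, the E-box, which reads the same on both strands.
CDK4, chr12:57752311-57752560, minus strand: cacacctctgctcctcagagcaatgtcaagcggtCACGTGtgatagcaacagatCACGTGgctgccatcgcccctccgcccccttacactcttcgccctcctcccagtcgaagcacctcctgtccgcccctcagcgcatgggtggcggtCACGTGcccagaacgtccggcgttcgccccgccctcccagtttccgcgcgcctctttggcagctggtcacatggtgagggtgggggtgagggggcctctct
CDKN1B, chr12:12717118-12717367, plus strand: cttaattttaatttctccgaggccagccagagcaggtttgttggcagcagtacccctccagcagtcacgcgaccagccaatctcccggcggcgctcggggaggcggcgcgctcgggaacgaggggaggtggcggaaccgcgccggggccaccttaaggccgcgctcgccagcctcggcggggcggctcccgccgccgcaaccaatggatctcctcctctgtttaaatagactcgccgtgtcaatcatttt
The CDK4 window held 3 copies of CACGTG, beginning 216, 196 and 101 bases before the start, and the CDKN1B window held none. Among the 35116 windows of this length in the table, 6.34% held at least 1 copy. The STAT motif TTCNNNGAA, which also reads the same on both strands and was found in 6.57% of windows, was in neither. The E2F motif, searched as TTTCCCGC or TTTGGCGC on both strands and found in 1.93% of windows, was in neither as well. The searched motifs share no bases in these windows. There were 12 windows for 7 of the 10 genes and none for CCND1, CDK2 and MYC, which were therefore not searched. Apart from CDK4, CACGTG occurred in windows of CDKN2C (log2 fold change 0.15), and TTCNNNGAA in the only RB1 window (log2 fold change 0.07). The RB1 window, chr13:48476200-48476449, stands before 1 listed start, which may not be the main one. Other RB1 starts were not searched, and which start of a gene is used in these cells was not measured. Neither CDK4 nor CDKN2C was called, and whether CACGTG bears on their values was not tested. A match describes these letters and is no measurement of binding.

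None of the 3 inhibitor genes was called. CDKN1A, which encodes p21 and lies on chromosome 6 from 36644237 to 36655114, had 178 and 199 normalized counts with vehicle and 195 and 178 with EC359. Its groups overlapped fully (log2 fold change -0.01, edgeR adjusted p = 0.966, standard error 0.122). At these low counts, from 160 to 220 reads per library, the 95% interval ran from -18% to 19.5%. The sign of the CDKN1A value turned in 5 of 16 alternatives, which ranged from -0.09 to 0.06. CDKN1B, which encodes p27 and lies on chromosome 12 from 12838432 to 12875303, had 857 and 921 normalized counts with vehicle and 969 and 1073 with EC359. The EC359 libraries were the higher ones, and they also differed most from each other (log2 fold change 0.20, edgeR adjusted p = 0.144, standard error 0.0717). The 95% interval for CDKN1B ran from 2.81% to 28.2%, and without EC359 replicate 2 its log2 fold change was 0.12 (edgeR adjusted p = 0.624), no longer under an unadjusted 0.05. CDKN2C, which encodes the INK4 inhibitor p18 and lies on chromosome 1 from 51426417 to 51440306, had 837 and 823 normalized counts with vehicle and 898 and 951 with EC359 (log2 fold change 0.15, edgeR adjusted p = 0.196, standard error 0.064). Its EC359 libraries were above both vehicle libraries, with a 95% interval from 0.849% to 22.8%.

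RB1, the substrate of these kinases, lies on chromosome 13 from 48877880 to 49173572. It had 3442 and 3351 normalized counts with vehicle and 3691 and 3451 with EC359. The EC359 libraries (3571 ± 169, SD, n = 2) were above vehicle (3397 ± 64.1, SD, n = 2). Their own spread exceeded the gap between the nearest libraries, 3451 with EC359 and 3442 with vehicle. The log2 fold change of 0.07 did not pass (edgeR adjusted p = 0.377, standard error 0.0442). The RB1 value was 0.02 without EC359 replicate 1 and 0.12 without EC359 replicate 2.

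MYC, which lies on chromosome 8 from 128747680 to 128755197, had 5637 and 5905 normalized counts with vehicle and 5759 and 5834 with EC359. Both EC359 values fell between the vehicle values. The log2 fold change of MYC was 0.01 (edgeR adjusted p = 0.949, standard error 0.0367). The 95% interval ran from -5.07% to 6.26%, so a change of either sign within these bounds was not resolved. The sign turned without vehicle replicate 1 (-0.03) and without EC359 replicate 2 (-0.0028).

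**Figure D3:**
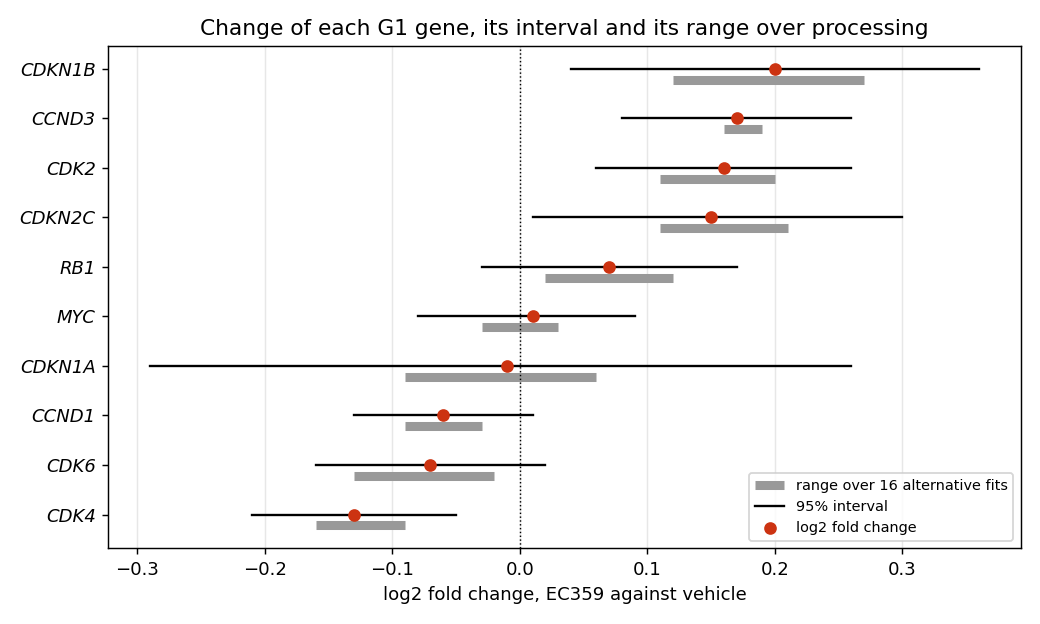
Points are log2 fold changes of EC359 against vehicle for the 10 genes, thin black lines are 95% intervals from the model, and grey bars span 16 alternative fits. CCND3, CDK2, CDKN1B and CDKN2C stay above 0 and CDK4 below 0 in both, while MYC and CDKN1A span 0 in both.

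The rest of the pathway was followed with lists of genes by function. At an unadjusted p under 0.05, 10.7% of all genes were higher and 11% lower. Of 11 tested genes for other G1 cyclins, kinases and their activators, the quasi-likelihood test called 0, with 1 higher and 3 lower at an unadjusted p under 0.05. The median log2 fold change was -0.073, and -0.031 without vehicle replicate 1. DESeq2 and the exact test each called 1 gene, CCNE2, and limma voom called 0. CCNE2, a cyclin E gene, had the lowest p of this list. It is also one of the E2F target genes described next and had 1985 and 1803 normalized counts with vehicle and 2442 and 2219 with EC359 (log2 fold change 0.30, edgeR adjusted p = 0.0254), and INTS8 overlaps 1629 of its exonic bases on the other strand. Of 4 tested genes for other inhibitors, the quasi-likelihood test and limma voom called 0, and 1 was lower at an unadjusted p under 0.05. DESeq2 and the exact test called this gene. It was CDKN3, a phosphatase that acts on CDK2, with 1324 and 1324 normalized counts with vehicle and 1073 and 1047 with EC359 (log2 fold change -0.32, edgeR adjusted p = 0.0125). CDKN1C was listed at 0 counts in all 4 libraries, as was CDK3. CDKN2A, named here after its values were seen, had the highest level per length of the inhibitor genes listed, at 123 to 149 RPKM, and its groups overlapped (log2 fold change 0.05, edgeR adjusted p = 0.771). CDKN2B-AS1 overlaps 593 exonic bases of CDKN2A on the other strand.

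Of 18 pocket protein, E2F and DREAM complex genes, the quasi-likelihood test and limma voom called 0. In the former, 4 were higher and 2 lower by unadjusted p, against 10.7% and 11% of all genes. DESeq2 and the exact test called 1, RBL1, as did the quasi-likelihood test with total counts only. RBL1, which encodes the pocket protein p107, had the lowest p, with 2120 and 2174 normalized counts with vehicle and 2585 and 2545 with EC359 (log2 fold change 0.26, edgeR adjusted p = 0.0118). RBL1 is also on the list of E2F targets that follows, which shares further genes with the lists above. E2F target genes of G1 exit stood higher as a list. Their median log2 fold change was 0.128 over 30 genes, 24 had a higher mean with EC359, and 16 were higher and 0 lower at an unadjusted p under 0.05, where 10.7% of all genes were higher. At an adjusted p under 0.05 there were 8, all higher, and at 0.01 there was 1, TYMS. Over all genes, 1.68% and 0.299% were higher at these levels. DESeq2 called 5 of these E2F targets and the exact test 7, all higher, with CCNE2 and RBL1 among both. Of the 12706 genes, DESeq2 called 60 higher and the exact test 232. With each library left out the median ran from 0.087 to 0.16, and 0 genes were called without EC359 replicate 1 or EC359 replicate 2. TYMS encodes thymidylate synthase and had 12357 and 12163 normalized counts with vehicle and 14754 and 14366 with EC359 (log2 fold change 0.25, edgeR adjusted p = 0.00327, standard error 0.0313). ENOSF1 overlaps 967 exonic bases of TYMS on the other strand. Without EC359 replicate 1 the adjusted p of TYMS was 0.309, and without EC359 replicate 2 it was 0.242.

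Around MYC, the messages of its partners and targets were examined. Of 16 tested MYC network genes, 1 was called lower. This was MXI1, which encodes a protein that binds MAX and opposes MYC. MXI1 had 707 and 723 normalized counts with vehicle and 541 and 478 with EC359 (log2 fold change -0.49, edgeR adjusted p = 0.00938, standard error 0.0796), and both EC359 libraries were far below vehicle. With total counts only the adjusted p of MXI1 was 0.0111, with no filter 0.0171 and with at least 10 counts in every library 0.0112. Without EC359 replicate 1 or EC359 replicate 2 it was 0.275 and 0.297. MYCN was listed at 0 counts in every library.

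The list of MYC targets held 40 genes, mostly of ribosome assembly and nucleotide supply. Their median log2 fold change was -0.051, and 32 had a lower mean with EC359. With total counts only the median was -0.027 and 27 were lower, and without vehicle replicate 1 there were 26. By unadjusted p (level 0.05), 14 of these target genes had lower and 2 higher values, against 11% and 10.7% of all genes. Fewer of these targets and fewer of all genes passed this level without EC359 replicate 1 or EC359 replicate 2. The list medians were then -0.061 and -0.056. There were 2 calls, both lower, and 4 with DESeq2 or the exact test, all lower. Over all genes 0.795% were called lower, and of the 12706 genes DESeq2 called 170 lower and the exact test 329. RCC1, the exchange factor for Ran, had 7188 and 7315 normalized counts with vehicle and 6150 and 6098 with EC359 (log2 fold change -0.24, edgeR adjusted p = 0.00442, standard error 0.0331). SNHG3 overlaps 242 exonic bases of RCC1 on the same strand. TFRC, the transferrin receptor gene, had 27956 and 26574 normalized counts with vehicle and 23544 and 22785 with EC359 (log2 fold change -0.24, edgeR adjusted p = 0.0055, standard error 0.034). With no filter the adjusted p of TFRC was 0.012. Without EC359 replicate 1 the adjusted p values were 0.295 for RCC1 and 0.309 for TFRC, and without EC359 replicate 2 they were 0.285 and 0.306.

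CDKN1A was also read beside other p53 targets and the set beside other STAT3 targets. Of 24 tested p53 target genes, the quasi-likelihood test, DESeq2 and limma voom called 0, and the exact test called 1, CCNG1. By unadjusted quasi-likelihood p, 5 were higher and 2 lower, against 10.7% and 11% of all genes. Fewer of the p53 targets and fewer of all genes passed without EC359 replicate 2. The median log2 fold change of the p53 list was 0.055, and 0.096 without vehicle replicate 2. CCNG1 had the lowest p of these, with 3141 and 3079 normalized counts with vehicle and 2692 and 2748 with EC359 (log2 fold change -0.19, edgeR adjusted p = 0.0277). Of 20 STAT3 target genes, the quasi-likelihood test, DESeq2 and limma voom called 0, and the exact test called BCL2 and IL6ST higher. By unadjusted quasi-likelihood p, 5 were higher and 5 lower, where 10.7% of all genes were higher and 11% lower. Fewer of these targets and fewer of all genes passed without EC359 replicate 2. The STAT3 list had a median of 0.082, and of 0.051 without vehicle replicate 1. IL6ST, which encodes gp130, the signal partner of LIFR, had 6566 and 6380 normalized counts with vehicle and 7379 and 7240 with EC359 (log2 fold change 0.18, edgeR adjusted p = 0.0203). SOCS3, named after its values were seen, had overlapping groups (log2 fold change -0.05, edgeR adjusted p = 0.646).

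**Figure D4:**
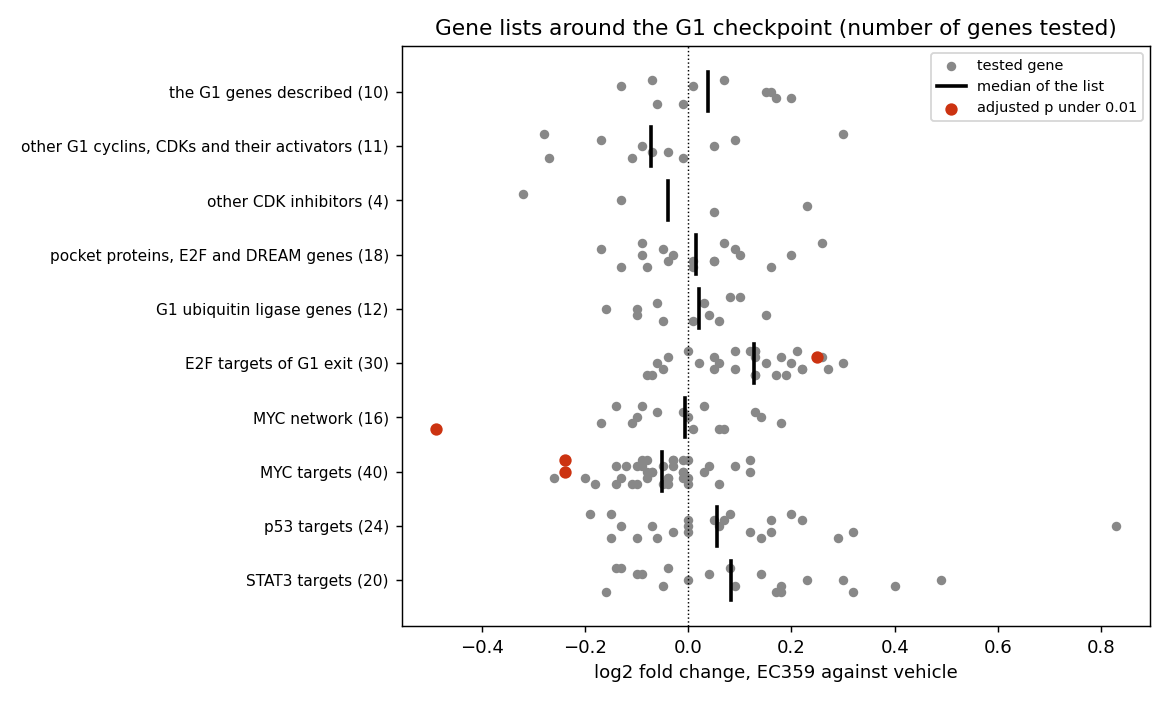
Each point is the log2 fold change of 1 tested gene, rows are the gene lists, black bars are list medians and red points have an adjusted p under 0.01. The E2F target row has its median at 0.128 and the MYC target row at -0.051, and the 4 red genes are TYMS, MXI1, RCC1 and TFRC.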

How the data were processed

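RNA of ES2 cells was measured in 2 libraries with vehicle and 2 with EC359, with groups and replicate numbers taken from the sample titles. Single-end reads of 50 bases were mapped by the authors with TopHat2 2.0.8b (genome hg19). HTSeq then gave read counts for RefSeq genes, and these raw counts, 1 per symbol, were deposited. Counter summary lines that name no gene were left out, and 1 marker gene is not reported here. These lines held from 10.9% to 12.0% of uniquely aligned reads on no gene and from 0.852% to 0.879% on several genes.

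In R 4.3.3, edgeR 4.0.16 was used to drop low genes (filterByExpr, minimum count 10, minimum total 15), to compute TMM factors and to run the quasi-likelihood test on treatment alone. Normalized counts are scaled to the mean of the effective library sizes. A gene was called at an adjusted p under 0.01, as in the study's methods, which used DESeq. Dividing a log2 fold change by the root of its F gave the standard error, and 95% intervals use the model's degrees of freedom. The spread between replicates was 3.50% (biological coefficient of variation), and replicates differed by more than counting error (chi-square per degree of freedom 3.81 for vehicle and 2.72 for EC359). On simulated counts the test recovered 36.7% of changed genes at an absolute log2 fold change of 0.3, 69.8% at 0.5 and 88.7% at 1. The changes of the 10 genes, from -0.13 to 0.20, were smaller than any simulated, so changes of their size would often be missed.

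Places, transcript lengths, GC content, overlaps and shared 50-base windows came from GENCODE on GRCh37 (hg19), which matched 81.5% of symbols. GC content was known for 85.5% of tested genes. Promoters came from RefSeq on GRCh38.p14. The set, the lists and the tests were chosen with earlier results of these data known. Named beside the 10 genes were up to 3 called genes of each list per direction, the gene with the lowest p where a list had none, genes with under 10 counts, and genes said to be named after their values were seen. No set test was run. As alternatives, the fits were repeated with upper-quartile or RLE factors, total counts, DESeq2 1.42.0, edgeR's exact test, limma 3.58.1 voom, other filters and thresholds, a replicate block, removal of GC or length trends, and leaving out each library. For the pathway lists, the other tools, filters, thresholds and GC or length corrections, and all alternatives for list medians and genes outside the set, were chosen after seeing the data.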

Additional observations from a re-analysis of the deposited data

How the results depend on the processing

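The fold changes of 8 of the 10 genes kept their sign in all 16 alternatives run for them. CDKN1A changed sign with total counts only (0.01), with the GC trend removed (0.02), with the GC trend removed and a replicate block (0.02), without vehicle replicate 2 (0.06) and without EC359 replicate 2 (0.05), and ranged from -0.09 to 0.06 when each library was left out. MYC changed sign with the length trend removed (-0.01), without vehicle replicate 1 (-0.03) and without EC359 replicate 2 (-0.0028), with a range from -0.03 to 0.03. The count of called genes among the 10 was 0 at first. It was 1 at an adjusted p under 0.05, 3 at an unadjusted p under 0.01 and 2 with the GC trend removed. Leaving out each library gave 0 in each fit. Over all genes, 139 were called, against 230 with DESeq2, 561 with edgeR's exact test, 61 with no filter, 549 at an adjusted p under 0.05, 1255 at an unadjusted p under 0.01 and 979 with the GC trend removed. Leaving out each library gave from 0 to 539 genes. The count was 0 without EC359 replicate 1, where 1460 passed an unadjusted p under 0.05, and 2 without EC359 replicate 2. Without vehicle replicates 1 and 2 it was 390 and 539. Of the genes on the pathway lists 4 were called, against 11 with DESeq2, 16 with the exact test, 2 with no filter, 17 at an adjusted p under 0.05, 39 at an unadjusted p under 0.01 and 32 with the GC trend removed, and from 0 to 21 when each library was left out, 0 without either EC359 library. Then 36 and 31 passed an unadjusted p under 0.05. In these fits the lone library of a group is assumed to vary like the other group.

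The libraries share replicate numbers, and the sources used here tie no batch to a number. The deviations of same-numbered libraries from their group means had a correlation of 0.11 across genes. A replicate block called 1539 genes over all, 3 of the 10 (CCND3, CDK2 and CDK4) and 47 of the list genes. With the GC trend also removed, the replicate block called 1898, 5 (CDK6 and CDKN1B in addition) and 56, and the median of the ubiquitin ligase list was -0.011. The smaller count with no filter came with 16620 genes tested, and no cause was tested for the other changes. The number of libraries, 2 per group, limits the precision of each value, and for CDKN1A the depth does as well.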

Other observations

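Ratios of read counts within a library do not depend on the scaling between libraries. They were chosen after the values had been seen and carry no test, since 2 libraries against 2 cannot give an exact permutation p below 0.333. CCND3 had 10.5% and 10.4% as many reads as CCND1 in the vehicle libraries and 12.5% and 12.1% in the EC359 libraries. CDK2 had 22.2% and 20.1% as many reads as CDK4 with vehicle and 26.3% and 25.2% with EC359. CDKN2C had 7.23% and 6.79% as many reads as CDK4 with vehicle and 8.46% and 8.58% with EC359. In these ratios both EC359 libraries lay above both vehicle libraries. The choice of pairs fixed this outcome. CCND3, CDK2 and CDKN2C each lay above vehicle by normalized counts, and CCND1 and CDK4 each lay below. The separation of the ratios therefore adds nothing to the values of the single genes. The ratio of CDK6 to CDK4 overlapped between groups, at 53.9% and 48.0% with vehicle and 54.8% and 51.1% with EC359. The ratio of MYC to CDKN1A overlapped as well, at 3170% and 2965% with vehicle and 2960% and 3271% with EC359.

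Genes of the ubiquitin ligases that degrade G1 cyclins, CDKN1B and MYC were listed with genes of related enzymes, and none was called. The related enzymes pass ubiquitin to ligases or remove it from proteins. Of 12 tested, 0 passed an adjusted p of 0.01 by edgeR's quasi-likelihood test, by DESeq2, by the exact test or by limma voom. By the first of these, 1 was higher and 2 lower at an unadjusted p under 0.05, where 10.7% of all genes were higher and 11% lower. The higher gene was USP37, which encodes an enzyme that removes ubiquitin and is named after its values were seen. The median log2 fold change of the list was 0.020. The median was 0.001 without vehicle replicate 2, and its sign turned without EC359 replicate 2 (-0.013). CUL1, the scaffold of SCF ligases, had the lowest p, with 6594 and 6404 normalized counts with vehicle and 6147 and 6010 with EC359 (log2 fold change -0.10, adjusted p = 0.145). SKP2, the SCF subunit that recognises the CDKN1B protein and named after its values were seen, had 2989 and 2918 against 3060 and 3165 (log2 fold change 0.08, adjusted p = 0.323).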
